A study of Mus musculus with 31 samples.

Results

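Expression of 7 genes of macrophages and other myeloid cells (*Csf1r*, *Spi1*, *Tyrobp*, *Cd68*, *Lyz2*, *Itgam*, and *Mpo*) was examined across an allelic series of *Etv2* in the mouse yolk sac. The genes were selected by symbol from a table of 18477 genes, and all 7 were present. Yolk sac RNA was sequenced from 31 somite-matched embryos at embryonic day 8.5, comprising *Etv2*+/+ (n = 6), *Etv2*+/enhΔ (n = 4), *Etv2*+/Δ (n = 6), *Etv2*enhΔ/enhΔ (n = 5), *Etv2*enhΔ/Δ (n = 5), and *Etv2*Δ/Δ (n = 5) embryos of both sexes and mixed strain. *Etv2* encodes an ETS transcription factor required for the common progenitors of blood and endothelium. The Δ allele lacks exons 4 and 5, which encode the DNA-binding domain, and was made by deletion of a floxed allele in the germline of females carrying Mef2c-AHF-Cre. The enhΔ allele lacks an upstream *Etv2* enhancer, was made by genome editing, and was kept as a pair of founder lines that the sample labels do not tell apart. Embryos came from crosses of *Etv2*+/enhΔ and *Etv2*+/Δ mice, no group was given a treatment, and the labels name neither litter nor processing batch.

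The first macrophages of the mouse embryo arise in the yolk sac, from early progenitors that also give rise to erythroid cells and megakaryocytes. *Spi1* encodes PU.1, the ETS factor that directs progenitors to the myeloid lineages. *Csf1r* is the receptor through which macrophages receive survival and growth signals from the ligands CSF1 and IL34, and *Tyrobp* (DAP12) is the adaptor that passes signals from several myeloid surface receptors to the kinase SYK. *Itgam* is the integrin subunit CD11b, *Cd68* is a glycoprotein of late endosomes and lysosomes, *Lyz2* is a lysozyme, and *Mpo* is the peroxidase of the granules of neutrophils and their precursors. In RNA of whole tissue, fewer cells of a type and less RNA per cell cannot be told apart.

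All 7 genes were weakly expressed, so that most of their values rest on few reads. The libraries held 2671612 to 22396340 reads in genes (median 13894962), and 1 read corresponded to 0.0440 to 0.378 CPM (reads scaled to library size). On the scale of mean CPM per kilobase of exon, over all 31 libraries, *Cd68* was highest (2.07), followed by *Lyz2* (0.425), *Tyrobp* (0.417), *Csf1r* (0.414), *Spi1* (0.248), *Mpo* (0.148), and *Itgam* (0.0261). The order was not the same in every genotype: in *Etv2*+/+ alone *Tyrobp* (0.895) lay above *Lyz2* (0.618) and *Csf1r* (0.482), whereas in *Etv2*Δ/Δ *Csf1r* (0.949) lay above both (0.0730 and 0.0627). Reads of *Lyz2* that also match its paralog *Lyz1*, which was not found by symbol among the 18477 genes, make its level uncertain.

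Several features of the libraries bear on the comparisons. Reads of the ferritin pseudogene *Ftl2-ps* were above 10 CPM in 8 libraries (5 of *Etv2*+/+ and 3 of *Etv2*+/enhΔ) and at most 0.515 CPM in the other 23, so genotype and this state can hardly be told apart where *Etv2*Δ/Δ, *Etv2*enhΔ/Δ, *Etv2*+/Δ, or *Etv2*enhΔ/enhΔ is compared with *Etv2*+/+, whereas the libraries of *Etv2*Δ/Δ, *Etv2*+/Δ, and *Etv2*enhΔ/Δ all shared the low state. Of 11 libraries labelled male, 4 (*Etv2*+/Δ replicates 2 and 3, *Etv2*Δ/Δ replicates 1 and 2) had high *Xist* and hardly any Y-linked reads. *Etv2*Δ/Δ replicate 5, labelled female, had 7.05 CPM of Y-linked reads, against at most 0.867 in the other libraries labelled female. Labels were used as given, and sex is a term of the main test. *Etv2* itself ranged from 0 to 0.491 CPM in *Etv2*+/+, 0 to 0.158 in *Etv2*+/enhΔ, 0 to 0.388 in *Etv2*enhΔ/enhΔ, 0.729 to 3.59 in *Etv2*+/Δ, 0.220 to 2.98 in *Etv2*enhΔ/Δ, and 0.220 to 2.52 in *Etv2*Δ/Δ. Since a gene total does not separate the deleted exons from the rest, these values do not check the Δ genotype. Of the lists of other cell types, all 10 erythroid and 9 of 11 endothelial genes fell in *Etv2*Δ/Δ against *Etv2*+/+, and 5 of 9 mesenchymal genes rose (limma). Of all genes, 13.3% were called in this comparison. Among other lists, 2 of 2 measured adult globin genes and 1 of 5 megakaryocyte genes fell. In addition, 1 of 10 visceral endoderm genes rose, and of 7 parietal endoderm genes 1 fell and 2 rose. Few calls need not mean a small change: the megakaryocyte genes summed to a median of 44.9 CPM in *Etv2*+/+ (20.6 to 52.6) and 0.514 in *Etv2*Δ/Δ (0.0871 to 3.40).

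*Spi1* and *Mpo* were the members with the smallest share of their reads in *Etv2*Δ/Δ. *Spi1* had 276 reads over the 26 libraries of the other genotypes, with reads in 24 of them, and 0 reads in all 5 *Etv2*Δ/Δ libraries. The count of 0 allowed up to 0.0463 CPM over the group (3 reads, as for every such limit here). *Mpo* had 224 reads over the other 26 libraries, again with reads in 24, and 2 reads in *Etv2*Δ/Δ. *Lyz2* (208 against 4 reads), *Tyrobp* (88 against 2), and *Itgam* (74 against 3) were also sparse in *Etv2*Δ/Δ. *Csf1r* and *Cd68* were not, with 329 and 161 reads in *Etv2*Δ/Δ (547 and 919 in the other 26).

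The promoter sequences of *Mpo* and *Lyz2* are given because, of those available, only they held a match to an ETS sequence that was searched for. PU.1 binds purine-rich ETS sequences. Both genes had few reads in *Etv2*Δ/Δ, but so did *Itgam*, whose promoter held no match to the sequences searched for. Few reads did not always go with a lack of *Spi1* reads. *Etv2*+/enhΔ replicate 3, with 0 *Spi1* reads, had 57 *Mpo* and 9 *Lyz2* reads. Sequences were taken from RefSeq (GRCm38.p6, 250 bases upstream of the start, 5′ to 3′ on the gene's strand), which matched 4 of the 7 members. Capitals mark a match to GAGGAAGT, an ETS sequence of the kind PU.1 binds, or to its shorter part GGAAGT, on either strand (opposite strand: ACTTCCTC and ACTTCC).
*Mpo* promoter, chr11:87793534-87793783, plus strand: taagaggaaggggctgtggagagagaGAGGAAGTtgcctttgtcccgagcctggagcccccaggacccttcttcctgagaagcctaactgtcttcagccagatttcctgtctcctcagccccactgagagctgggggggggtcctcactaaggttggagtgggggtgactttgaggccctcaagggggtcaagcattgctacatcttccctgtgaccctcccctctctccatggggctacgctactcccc
*Lyz2* promoter, chr10:117282273-117282522, minus strand: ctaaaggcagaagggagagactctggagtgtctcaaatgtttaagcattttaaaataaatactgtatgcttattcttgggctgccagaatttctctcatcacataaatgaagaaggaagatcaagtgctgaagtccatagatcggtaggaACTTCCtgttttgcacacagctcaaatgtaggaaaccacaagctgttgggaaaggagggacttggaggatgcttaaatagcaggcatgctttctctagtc
The match in *Mpo* lay 224 to 217 bases before the start, and that in *Lyz2*, on the opposite strand, lay 100 to 95 bases before it. The *Cd68* (chr11:69666171-69666420) and *Itgam* (chr7:128062390-128062639) promoters held no match to GAGGAAGT or GGAAGT in this window. Both do hold GAGGAA, a shorter part that was not searched for, so they are not shown to lack ETS sequences. Of 32851 promoters of the same length, 19.7% held GGAAGT and 2.44% held GAGGAAGT on either strand, and a match is a description of the letters, not of binding.

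In the mm9 annotation, the build of the deposited data, *Spi1* is on chromosome 2 (90922547 to 90955913, plus strand), *Mpo* on chromosome 11 (87607083 to 87617915, plus), *Lyz2* on chromosome 10 (116714390 to 116719377, minus), *Tyrobp* on chromosome 7 (31198807 to 31202596, plus), *Itgam* on chromosome 7 (135206154 to 135271674, plus), *Cd68* on chromosome 11 (69477715 to 69479655, minus), and *Csf1r* on chromosome 18. *Mpo* overlaps *Gm11505* and *Csf1r* overlaps *Hmgxb3*, both on the opposite strand. Whether counting used strand is not given in the sources used here, so the reads of each overlapping pair may not be fully separated.

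The level of each gene in each genotype was examined next, beginning with the lineage factor. *Spi1* measured 0.181, 0.479, 0, 1.29, 0.874, and 0.348 CPM in *Etv2*+/+ replicates 1 to 6, a mean of 0.528 ± 0.475 (SD, n = 6). It measured 3.19, 0.773, 2.08, 0.993, 0.0513, and 1.09 CPM in *Etv2*+/Δ (1.36 ± 1.11, n = 6) and 0.791, 0.584, 0.659, 0.515, and 0.259 in *Etv2*enhΔ/Δ (0.561 ± 0.198, n = 5). The *Etv2*Δ/Δ libraries, all at 0, thus lay below every library of *Etv2*+/Δ and of *Etv2*enhΔ/Δ, but overlapped *Etv2*+/+, in which replicate 3 was also at 0. *Spi1* was 0.644 ± 0.503 CPM in *Etv2*+/enhΔ (n = 4; 0 to 1.23) and 0.795 ± 0.941 in *Etv2*enhΔ/enhΔ (n = 5; 0.203 to 2.44). The ranges of the genotypes other than *Etv2*Δ/Δ overlapped each other, and *Etv2*Δ/Δ also overlapped *Etv2*+/enhΔ, in which replicate 3 was at 0. Over pooled reads, and against a floor of 3 reads for the group, *Spi1* was at least 30.8-fold lower in *Etv2*Δ/Δ relative to *Etv2*+/Δ, at least 12.3-fold lower than in *Etv2*enhΔ/Δ, and at least 12.9-fold lower than in *Etv2*+/+. The exact 95% counting intervals of these ratios, which include the error of the reference, begin lower, at 24.6, 9.52, and 9.93-fold. *Etv2*+/Δ replicate 1 supplied 70 of the 116 *Spi1* reads of its group, and without it the first bound was 16.7-fold. *Etv2*+/+ replicate 4 supplied 19 of the 36 reads of its group, and without it the last bound was 8.03-fold. Without *Etv2*Δ/Δ replicate 2, the deepest library, the bounds against *Etv2*+/Δ, *Etv2*enhΔ/Δ, and *Etv2*+/+ were 19.96, 7.99, and 8.34-fold.

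*Mpo*, the granule peroxidase, measured 0.181, 0.766, 0.393, 1.96, 0.125, and 0.174 CPM in *Etv2*+/+ (0.600 ± 0.709) and 0, 0.0880, 0, 0, and 0 in *Etv2*Δ/Δ (0.0176 ± 0.0394). Every *Etv2*+/+ library was above every *Etv2*Δ/Δ library. *Mpo* measured 0.226, 0.292, 0.952, 0.257, and 0.129 CPM in *Etv2*enhΔ/Δ (0.371 ± 0.330), again without overlap with *Etv2*Δ/Δ, and 0.274, 0, 0.231, 0.434, 0.103, and 0.834 in *Etv2*+/Δ (0.312 ± 0.295), with overlap. The mean was 1.29 ± 1.31 in *Etv2*+/enhΔ (0.323 to 3.14) and 0.628 ± 0.411 in *Etv2*enhΔ/enhΔ (0 to 1.02). In pooled reads *Mpo* was 24.1-fold lower in *Etv2*Δ/Δ relative to *Etv2*+/+ (95% counting interval 6.29 to 205), 12-fold lower than in *Etv2*enhΔ/Δ (2.97 to 105), and 11.5-fold lower than in *Etv2*+/Δ (2.92 to 99.8). *Etv2*+/+ replicate 4 held 29 of 45 *Mpo* reads of its group, and the fold was 11.3 without it. *Etv2*enhΔ/Δ replicate 3 held 13 of 24, and the fold against *Etv2*enhΔ/Δ was 6.95 without it (1.52 to 64.6). Both *Mpo* reads of *Etv2*Δ/Δ were in replicate 2, and without it the folds were at least 10.4 against *Etv2*+/+, 5.18 against *Etv2*enhΔ/Δ, and 4.99 against *Etv2*+/Δ. These intervals, like the read limits, reflect counting error only and not the spread between embryos.

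*Lyz2*, the lysozyme, measured 0, 0, 0, 0.411, and 0 CPM in *Etv2*Δ/Δ, where all 4 reads came from replicate 4, against 0.181, 0.479, 0, 0.406, 3.37, and 0.435 in *Etv2*+/+. The groups overlapped at 0, and *Etv2*+/+ replicate 5 stood far above the rest. *Lyz2* was highest on average in *Etv2*+/enhΔ (1.27 ± 1.27 CPM) and lower in *Etv2*enhΔ/enhΔ (0.493 ± 0.386), *Etv2*+/Δ (0.474 ± 0.409), and *Etv2*enhΔ/Δ (0.321 ± 0.480), with spreads as large as these differences. In pooled reads it was 11.8-fold lower in *Etv2*Δ/Δ relative to *Etv2*+/+ (4.29 to 45.1), 7.36-fold lower than in *Etv2*+/Δ (2.64 to 28.4), and 3.99-fold lower than in *Etv2*enhΔ/Δ (1.29 to 16.4). *Etv2*+/+ replicate 5 held 27 of the 44 *Lyz2* reads of its group, and the fold against *Etv2*+/+ was 5.25 without it (1.71 to 21.4). The fold against *Etv2*enhΔ/Δ was 1.98 without *Etv2*enhΔ/Δ replicate 4, with an interval that includes 1 (0.504 to 9.24). Without *Etv2*Δ/Δ replicate 2 the folds were 7.64 against *Etv2*+/+, 4.78 against *Etv2*+/Δ, and 2.59 against *Etv2*enhΔ/Δ.

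The receptor-associated genes *Tyrobp* and *Itgam* had the fewest reads. *Tyrobp* measured 0.722, 0.766, 0.884, 0.406, 0.25, and 0 CPM in *Etv2*+/+ (0.505 ± 0.343) and 0, 0, 0, 0.206, and 0 in *Etv2*Δ/Δ (0.0411 ± 0.092). Unlike *Spi1*, *Tyrobp* was also low in *Etv2*+/Δ (0.120 ± 0.141; 0 to 0.310) and *Etv2*enhΔ/enhΔ (0.0564 ± 0.0889; 0 to 0.203), and *Etv2*enhΔ/Δ spanned 0 to 1.10 CPM, so *Etv2*Δ/Δ overlapped all of them. By the study's position of the enhancer deletion, *Tyrobp* lies close to *Etv2* on the same chromosome. In mice of mixed strain, variants carried along with an edited allele cannot be told apart from the effect of that allele on *Tyrobp*. Neither was tested. *Tyrobp* was 15.5-fold lower in *Etv2*Δ/Δ relative to *Etv2*+/+ in pooled reads (3.93 to 134), 9.48-fold lower than in *Etv2*enhΔ/Δ (2.29 to 83.9), and 4.77-fold lower than in *Etv2*+/Δ (1.06 to 43.9). *Etv2*enhΔ/Δ replicate 3 held 15 of the 19 *Tyrobp* reads of its group, and without it the fold was 2.53, with an interval that includes 1 (0.362 to 27.9). Without *Etv2*Δ/Δ replicate 2 the folds were 10.1 against *Etv2*+/+, 6.15 against *Etv2*enhΔ/Δ, and 3.1 against *Etv2*+/Δ. Without *Etv2*Δ/Δ replicate 4, which held both *Tyrobp* reads of its group, they were at least 8.80, 5.37, and 2.7.
*Itgam* measured 0.181, 0.0958, 0.0982, 2.23, 0, and 0.261 CPM in *Etv2*+/+, and 0, 0.0880, 0.0551, 0, and 0 in *Etv2*Δ/Δ. *Etv2*+/+ replicate 4 held 33 of the 39 *Itgam* reads of its group. The pooled level was 13.9-fold lower in *Etv2*Δ/Δ relative to *Etv2*+/+ (4.43 to 70.4) with this library and 2.84-fold lower without it (0.605 to 17.5, which includes 1), and 27.1-fold lower without *Etv2*Δ/Δ replicate 2, which held 2 of the 3 reads of *Etv2*Δ/Δ. Against *Etv2*+/Δ, with 6 reads, the difference was 1.59-fold (0.340 to 9.83; 3.1 without *Etv2*Δ/Δ replicate 2) and not detectable at this depth.

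*Csf1r*, the CSF1 receptor, did not share this pattern. It measured 7.56, 6.07, 7.27, 3.29, and 0.609 CPM in *Etv2*Δ/Δ replicates 1 to 5 (4.96 ± 2.96), from 20, 138, 132, 32, and 7 reads. In *Etv2*+/Δ it measured 2.69, 1.29, 1.85, 1.24, 1.54, and 1.41 CPM (1.67 ± 0.545), and in *Etv2*enhΔ/Δ 0.282, 0.876, 1.25, 1.67, and 1.94 (1.20 ± 0.656). In 4 of the 5 *Etv2*Δ/Δ libraries *Csf1r* was thus above every library of *Etv2*+/Δ and of *Etv2*enhΔ/Δ, while replicate 5 lay among or below them. In *Etv2*+/+ it measured 1.81, 0.670, 1.08, 7.24, 3.37, and 0.957 CPM (2.52 ± 2.51), where replicate 4 reached the level of the highest *Etv2*Δ/Δ libraries and held 107 of the 173 reads. *Csf1r* was 1.27 ± 0.943 CPM in *Etv2*+/enhΔ and 1.21 ± 1.68 in *Etv2*enhΔ/enhΔ. The pooled ratio of *Etv2*Δ/Δ was 4.45 to *Etv2*enhΔ/Δ (3.45 to 5.81), 2.87 to *Etv2*+/Δ (2.35 to 3.52), and 1.78 to *Etv2*+/+ (1.47 to 2.15), the last becoming 3.52 (2.69 to 4.65) without *Etv2*+/+ replicate 4.

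*Cd68*, found in lysosomes of many cell types besides macrophages, overlapped between all genotypes. It measured 0.756, 3.87, 2.75, 1.65, and 0.435 CPM in *Etv2*Δ/Δ (1.89 ± 1.43) and 3.43, 1.63, 1.87, 3.86, 2.12, and 2.35 in *Etv2*+/+ (2.54 ± 0.897). The means were 4.04 ± 3.36 CPM in *Etv2*+/enhΔ, 2.88 ± 1.62 in *Etv2*+/Δ, 2.56 ± 1.24 in *Etv2*enhΔ/enhΔ, and 1.97 ± 0.501 in *Etv2*enhΔ/Δ. *Cd68* was the only member with reads in all 31 libraries besides *Csf1r*, and the pooled ratio of *Etv2*Δ/Δ to *Etv2*+/+ was 0.964 (0.768 to 1.21).

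**Figure D1:**
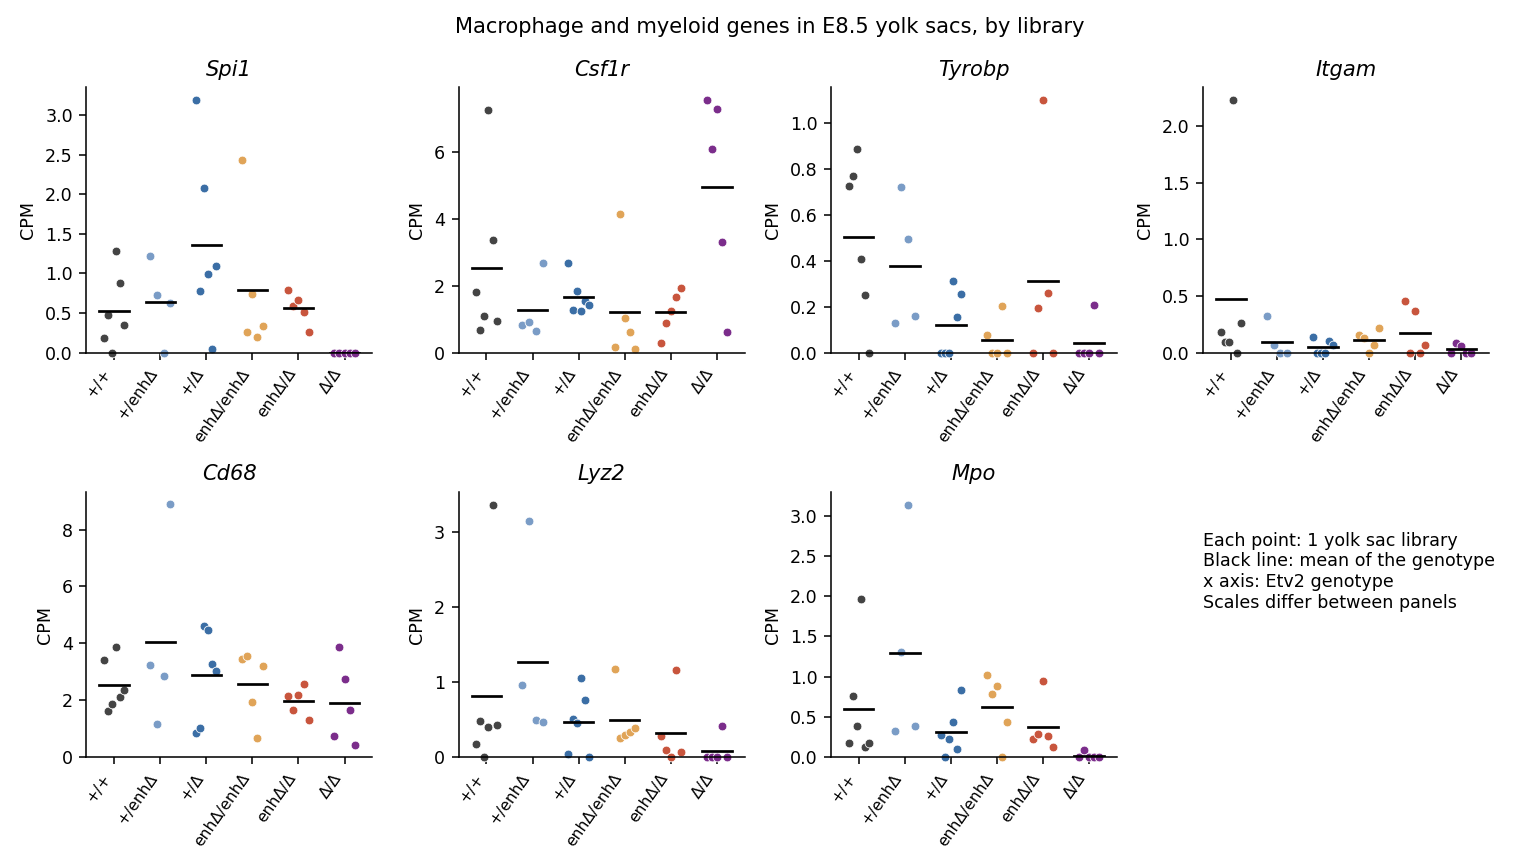
CPM of the 7 genes (y axis, separate scale for each panel) by *Etv2* genotype (x axis); each point is 1 yolk sac library and the black line the mean of the genotype. All 5 Δ/Δ libraries are at 0 for *Spi1*, and *Mpo*, *Lyz2*, *Tyrobp*, and *Itgam* are at or near 0 there, whereas *Csf1r* is between 3.29 and 7.56 CPM in 4 of the 5 Δ/Δ libraries and *Cd68* overlaps between all genotypes.

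Summed over *Spi1*, *Mpo*, *Lyz2*, *Tyrobp*, and *Itgam*, a subset formed after the values were seen and therefore only described, the 5 *Etv2*Δ/Δ libraries held 11 reads in all. The other genotypes held 110 (*Etv2*enhΔ/Δ) to 233 (*Etv2*+/enhΔ) reads. The median of the sum was 0.0551 CPM in *Etv2*Δ/Δ (0 to 0.617), 1.75 in *Etv2*enhΔ/Δ (0.517 to 3.08), and 2.02 in *Etv2*+/+ (1.22 to 6.29). The upper *Etv2*Δ/Δ value, in replicate 4, lay above the lowest *Etv2*enhΔ/Δ library.

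**Figure D2:**
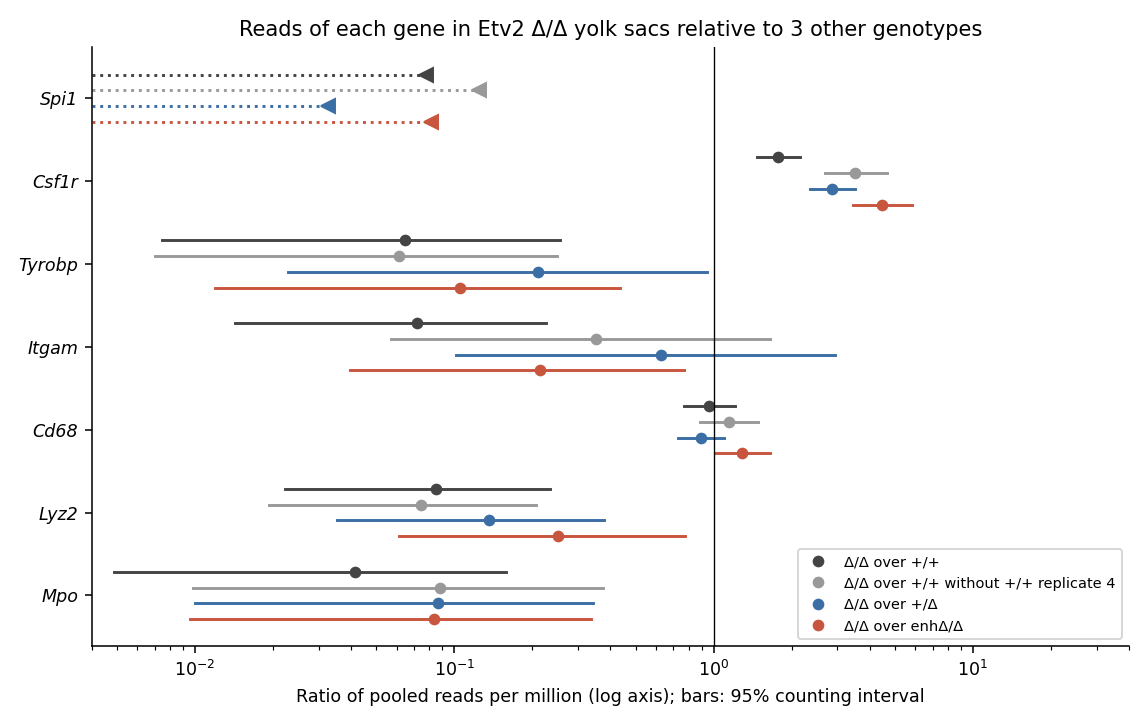
Ratio of the pooled CPM of each gene in *Etv2* Δ/Δ to that in +/+, in +/+ without replicate 4, in +/Δ, and in enhΔ/Δ (log axis; bars, 95% counting interval). The arrows for *Spi1*, at 0 reads in Δ/Δ, mark the upper limit set by 3 reads; *Csf1r* lies above 1 against every reference, and the *Itgam* interval includes 1 without +/+ replicate 4 and against +/Δ.

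Differences were then tested across all genes. With limma on the deposited log2(CPM + 1) values, which compress the changes of weakly expressed genes, genotype was associated with none of the 7 members after Benjamini-Hochberg adjustment over all genes, against 12.1% of all genes. The smallest adjusted p was 0.108, for *Spi1*, and 4 members had an unadjusted p under 0.05. On the reads recovered from the values, voom, which weights each value by its precision before the limma fit, called *Spi1* alone (12.1% of all genes).

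In *Etv2*Δ/Δ against *Etv2*+/+, 0 of 7 members passed in limma (13.3% of all genes did; 2 members, *Tyrobp* and *Lyz2*, had an unadjusted p under 0.05). The difference in log2(CPM + 1) was −0.50 for *Tyrobp* (SE 0.18, adjusted p = 0.0647), −0.67 for *Lyz2* (SE 0.30, adjusted p = 0.146), and −0.59 for *Spi1* (SE 0.29, adjusted p = 0.199). It was −0.50 for *Mpo* (SE 0.27, adjusted p = 0.241) and −0.35 for *Itgam* (SE 0.20, adjusted p = 0.272). It was 0.84 for *Csf1r* (SE 0.44, adjusted p = 0.231) and −0.35 for *Cd68* (SE 0.39, adjusted p = 0.637). By voom on the recovered reads, *Spi1* (log2 difference −3.37, adjusted p = 0.0387) and *Mpo* (−2.83, adjusted p = 0.0451) fell, 2 of 7 members against 13% of all genes. *Lyz2* (adjusted p = 0.0513) and *Tyrobp* (0.0635) just missed the threshold. In voom these calls depended on single libraries: with each of the 31 left out in turn, it called *Spi1* in 23 fits (adjusted p up to 0.102, without *Etv2*Δ/Δ replicate 2) and *Mpo* in 16 (up to 0.154, without *Etv2*Δ/Δ replicate 3), and both were lost with a term for *Ftl2-ps* reads (0.164 and 0.653). *Spi1* was lost without *Etv2*+/+ replicate 2, 4, 5, or 6, or without *Etv2*Δ/Δ replicate 2, 3, 4, or 5. *Mpo* was lost without *Etv2*+/+ replicate 2, 3, or 4, *Etv2*Δ/Δ replicate 2, 3, 4, or 5, *Etv2*enhΔ/Δ replicate 1, 2, 4, or 5, *Etv2*+/enhΔ replicate 2 or 4, *Etv2*+/Δ replicate 3, or *Etv2*enhΔ/enhΔ replicate 5. The edgeR count test, whose values are not given here, called the same pair of genes and kept *Spi1* in every fit that left out a library. In exact two-sided permutation tests of the library labels, unadjusted, p was 0.0043 for *Mpo*, the smallest that 462 regroupings allow. By the same test p was 0.0260 for *Spi1* and for *Tyrobp*, and 0.0346 for *Itgam*. It was 0.0693 for *Lyz2*, 0.216 for *Csf1r*, and 0.277 for *Cd68*. *Mpo* was also the only member without overlap between the groups, as were 4.45% of all genes in this direction. That rests on single reads: *Etv2*+/+ replicates 1 and 5 held 1 *Mpo* read each, and 1 read in *Etv2*Δ/Δ replicate 1 was 0.378 CPM.

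Between *Etv2*Δ/Δ and *Etv2*+/Δ, 2 groups that differ in 1 *Etv2* allele and share the low *Ftl2-ps* state, *Spi1* in *Etv2*Δ/Δ fell by 1.13 on the log2(CPM + 1) scale (limma; SE 0.29, adjusted p = 0.0061). It was the only 1 of 7 members called, against 13.4% of all genes, and voom made the same single call (−4.45, adjusted p = 0.0021; 15.4% of all genes). The *Spi1* call held in all 31 fits that left out a library, by limma (adjusted p = 0.0010 to 0.0231) and by voom (9.25e-05 to 0.0109), and in voom with a term for *Ftl2-ps* reads (0.0025). *Spi1* was the only member whose groups did not overlap (4.3% of all genes in this direction), and its exact permutation p was 0.0043. The *Csf1r* difference was 1.00 (SE 0.43, adjusted p = 0.131) in limma and became 1.53 with an adjusted p of 0.0080 without *Etv2*Δ/Δ replicate 5, its lowest library in that group. With each of the 31 libraries left out, *Csf1r* was called in 1 fit by limma (adjusted p up to 0.313) and in 1 by voom (up to 0.615). *Mpo* (−0.30, adjusted p = 0.518) and *Lyz2* (−0.48, adjusted p = 0.318) did not pass.

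The comparison of *Etv2*Δ/Δ with *Etv2*enhΔ/Δ sets no functional allele against 1 allele that lacks its enhancer, and limma called 0 of 7 members (4.9% of all genes). *Csf1r* was higher by 1.30 (SE 0.45, adjusted p = 0.0974) and *Spi1* lower (−0.65, SE 0.30, adjusted p = 0.247), both with an unadjusted p under 0.05. *Spi1* was called lower by voom (−3.75, adjusted p = 0.0341; 1 of 7 members against 5.56% of all genes) and by limma on these 2 groups alone (0.0152). With each of the 31 libraries left out, voom called *Spi1* in 24 fits, and the call was lost without *Etv2*enhΔ/Δ replicate 1, 2, 3, or 4 or *Etv2*Δ/Δ replicate 2, 3, or 4 (adjusted p up to 0.0981). The edgeR count test kept it in every such fit run. *Spi1* and *Mpo* were the members without overlap (3.6% of all genes in this direction), each with an exact permutation p of 0.0079, the smallest that 252 regroupings allow. Without *Etv2*Δ/Δ replicate 5, *Csf1r* was called higher by limma (1.81, adjusted p = 0.0053) and by voom (adjusted p = 0.0023). That was the only 1 of the 31 fits to call it by either tool, and the adjusted p was up to 0.226 by limma and 0.376 by voom. The 3 comparisons share the *Etv2*Δ/Δ libraries and are not independent of each other.

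**Figure D3:**
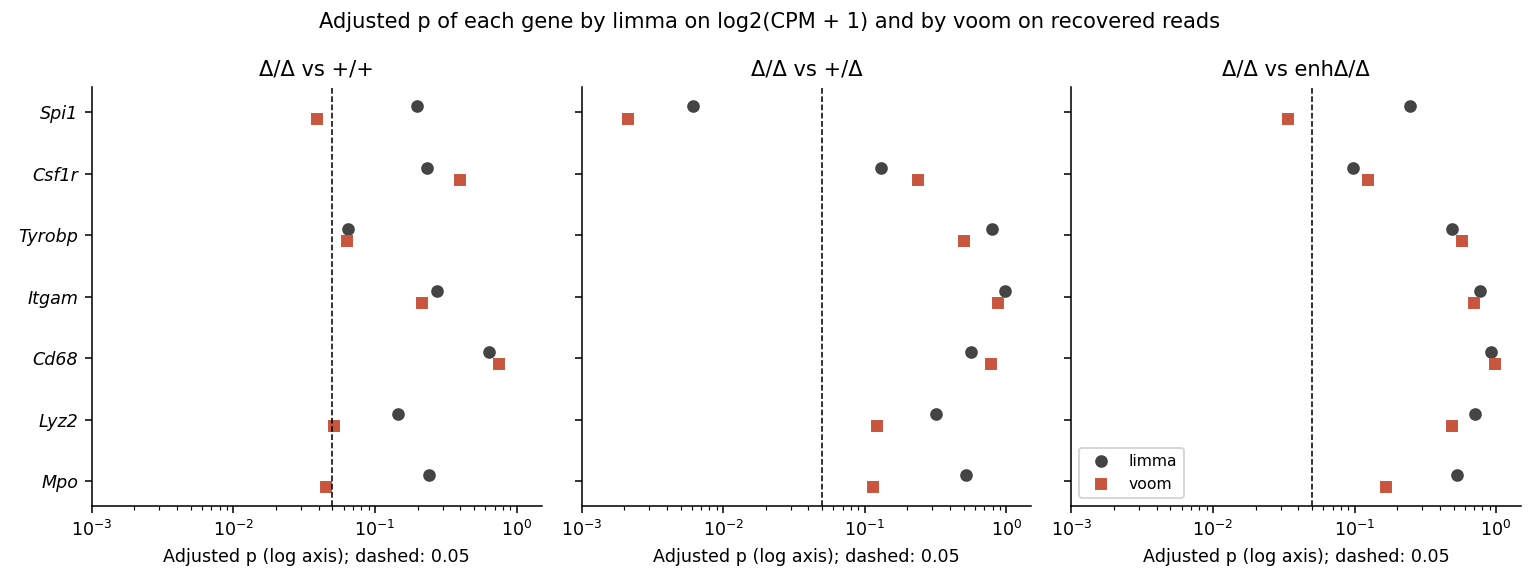
Adjusted p of each gene (log x axis; dashed line, 0.05) by limma on log2(CPM + 1) (circles) and by voom on recovered reads (squares) in Δ/Δ against +/+, +/Δ, and enhΔ/Δ. *Spi1* is left of the line by both against +/Δ and by voom alone against +/+ and enhΔ/Δ, and *Mpo* is left of it only by voom against +/+.

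No member was called in the hypomorphic *Etv2*enhΔ/Δ yolk sacs against *Etv2*+/+. Both limma (1.33% of all genes) and voom (1.2%) called 0 of 7 members, and neither gave a member an unadjusted p under 0.05. The limma differences were 0.06 for *Spi1*, −0.13 for *Mpo*, −0.38 for *Lyz2*, −0.22 for *Tyrobp*, and −0.46 for *Csf1r*. *Spi1* had 37 reads in *Etv2*enhΔ/Δ and 36 in *Etv2*+/+ (1.04-fold lower in pooled reads, 0.641 to 1.70). No member passed in *Etv2*enhΔ/enhΔ (limma 0.0216% of all genes, voom 0.00541%) or *Etv2*+/Δ (0.0271% and 0.0216%) against *Etv2*+/+ either. *Tyrobp* had an unadjusted p of 0.0099 in *Etv2*enhΔ/enhΔ (−0.48, adjusted p = 0.612) and 0.0230 in *Etv2*+/Δ (−0.40, adjusted p = 0.802). In *Etv2*+/enhΔ no member was called by limma or voom (0% of all genes by each), and limma gave 0 members an unadjusted p under 0.05.

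The members were compared with other genes of the myeloid program, by list. Among myeloid transcription factors, 2 of 11 measured genes fell in *Etv2*Δ/Δ against *Etv2*+/+ and 0 rose (limma; 13.3% of all genes were called in either direction; list median 0.00, median of all genes −0.01), and both, *Runx1* and *Myb*, are also in the list of hemogenic and progenitor genes. *Runx1*, the factor required for the emergence of definitive blood cells from hemogenic endothelium, fell from 51.1 ± 5.76 to 13.4 ± 3.82 CPM (−1.86, SE 0.18, adjusted p = 3.45e-09). *Myb*, a factor of definitive progenitors, fell from 3.70 ± 1.64 to 0.602 ± 0.719 CPM (−1.37, SE 0.44, adjusted p = 0.0331). In *Etv2*enhΔ/Δ 0 of 11 were called.

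Of 15 measured surface and immune receptors of macrophages (29 listed), 3 fell in *Etv2*Δ/Δ against *Etv2*+/+ and 0 rose, beside 13.3% of all genes called (list median −0.91). The mannose receptor *Mrc1* fell from 102 ± 18.1 to 1.47 ± 1.68 CPM (−5.59, SE 0.28, adjusted p = 3.16e-16) and was 137 ± 29.6 CPM in *Etv2*enhΔ/Δ (0.41, adjusted p = 0.615 against *Etv2*+/+). The lowest *Etv2*+/+ library was at 81.1 CPM and the highest *Etv2*Δ/Δ library at 4.35. The shared cytokine receptor chain *Csf2rb* fell from 54.8 ± 27.6 to 1.14 ± 1.35 CPM (−4.74, SE 0.65, adjusted p = 2.91e-06), with 16.4 ± 10.1 CPM in *Etv2*enhΔ/Δ (−1.69, adjusted p = 0.240). The third was the Fc receptor *Fcgr3*, named because it completes the count. *Mrc1* is also made by some endothelial cells and *Csf2rb* by progenitors, so these genes are not confined to macrophages. *Cx3cr1*, *Adgre1*, *Trem2*, *Timd4*, and *Cd163*, which would mark macrophages more closely, were not found by symbol among the 18477 genes. Whether these yolk sacs held mature macrophages cannot be read from the 7 genes alone.

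Among 18 genes that act below immunoreceptors and integrins in blood cells, 9 fell in *Etv2*Δ/Δ and 0 rose, beside 13.3% of all genes called (list median −0.80). *Syk*, the kinase recruited by *Tyrobp*, fell from 3.92 ± 1.77 to 0.121 ± 0.271 CPM (−2.27, SE 0.44, adjusted p = 0.000415). The adaptor *Lcp2* (−2.33, adjusted p = 6.15e-05) and the platelet and leukocyte protein *Plek* (34.0 to 0.870 CPM; −4.45, adjusted p = 7.65e-12) also fell. In *Etv2*enhΔ/Δ 0 of the 18 were called, and *Syk* and *Lcp2* were at 4.63 ± 2.15 and 7.97 ± 3.60 CPM there. Many of these genes act in megakaryocytes as well, and 12 of 15 hemogenic and progenitor genes, among them *Tal1* (85.6 to 0.332 CPM) and *Gfi1b* (16.2 to 0 CPM), fell with them. *Tal1* (−1.76, adjusted p = 2.76e-05) and *Gfi1b* (−2.02, adjusted p = 0.000833) were also the 2 genes of that list that fell in *Etv2*enhΔ/Δ.

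Of 9 measured macrophage effectors, 2 fell in *Etv2*Δ/Δ against *Etv2*+/+, beside 13.3% of all genes called (list median −0.30). *Ncf4*, a subunit of the phagocyte oxidase, was at 6.01 ± 3.42 CPM in *Etv2*+/+, 0.690 ± 0.627 in the *Etv2*enhΔ/Δ group, and 0 in all *Etv2*Δ/Δ libraries (−2.84, SE 0.37, adjusted p = 8.26e-07). It also fell in *Etv2*enhΔ/Δ (−2.07, adjusted p = 0.000563), the only gene of the myeloid lists to do so. *Laptm5*, a lysosomal protein of blood cells, fell from 4.30 ± 2.45 to 0.132 ± 0.197 CPM (adjusted p = 0.000737). Of 15 general lysosomal genes, 0 fell and 2, *Cd63* and *Gaa*, rose in *Etv2*Δ/Δ (list median 0.27), a share like the 13.3% of all genes, and *Cd68* (−0.35) was not called. The 3 granule genes measured and the 3 genes of the *Itgam* family or that pair with *Tyrobp* gave no call by limma (list medians −0.02 and −0.12), and lymphoid genes gave none of 2.

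*Csf1*, a ligand of *Csf1r*, rose in *Etv2*Δ/Δ to 22.3 ± 4.98 CPM from 11.5 ± 3.62 in *Etv2*+/+ (0.98, SE 0.32, adjusted p = 0.0364) and from 11.8 ± 4.95 in *Etv2*+/Δ (0.97, adjusted p = 0.0336). It was 17.8 ± 4.08 CPM in *Etv2*enhΔ/Δ (0.65 against *Etv2*+/+, adjusted p = 0.406). The other ligand, *Il34*, had 4 reads in *Etv2*+/+ and 0 in *Etv2*Δ/Δ. *Csf1r* is known in trophoblast and decidua as well as in macrophages, and markers of those tissues were summed in each library. The 5 measured decidual and uterine genes, of which *Cryab* passed (0.88, adjusted p = 0.00839) and *Hoxa10* had no reads in *Etv2*+/+, summed to 52.1, 52.8, 77.6, 61.6, and 85.8 CPM in *Etv2*Δ/Δ replicates 1 to 5, against 25.3 to 40.4 in *Etv2*+/+, 23.8 to 45.1 in *Etv2*+/Δ, and 34.1 to 45.0 in *Etv2*enhΔ/Δ. In the same order, *Csf1r* in these *Etv2*Δ/Δ libraries measured 7.56, 6.07, 7.27, 3.29, and 0.609 CPM. The 9 trophoblast genes, of which 0 were called, summed to 7.94 to 29.6 CPM in *Etv2*Δ/Δ and 14.6 to 26.0 in *Etv2*+/+, and *Tpbpa*, a defining trophoblast marker, had 0 reads in *Etv2*Δ/Δ and *Etv2*enhΔ/Δ. Of the 5 decidual and uterine genes *Cryab* alone was called, and the sum does not show whether maternal tissue was present. The part of trophoblast and decidua in the *Csf1r* values was not tested. *Hmgxb3*, which overlaps *Csf1r* on the other strand, was 21.2 ± 10.2 CPM in *Etv2*Δ/Δ and 27.9 ± 7.45 in *Etv2*+/+ (−0.39, adjusted p = 0.344). Whether reads of *Hmgxb3* entered the *Csf1r* values was not tested.

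**Figure D4:**
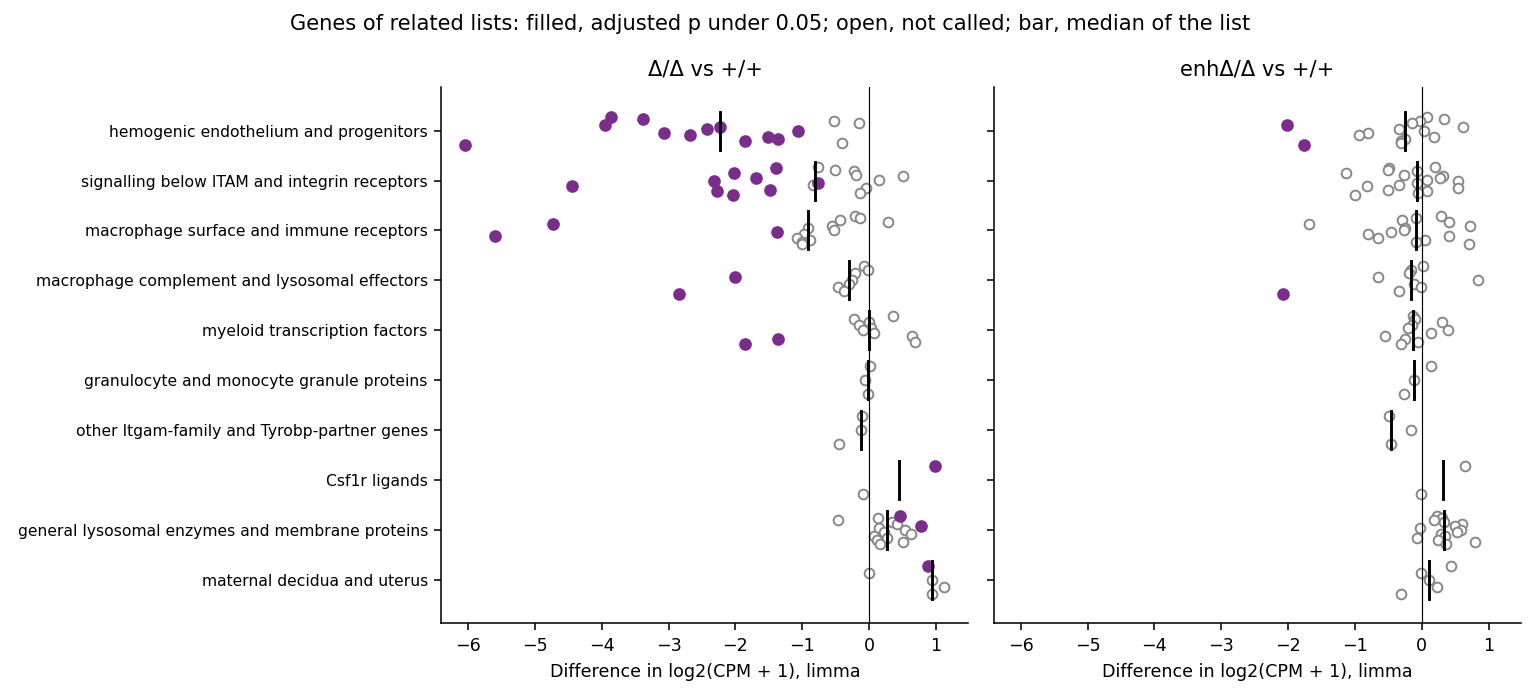
Difference in log2(CPM + 1) by limma (x axis) for each measured gene of 10 related lists in Δ/Δ against +/+ (left) and enhΔ/Δ against +/+ (right); filled points have an adjusted p under 0.05, and bars mark the list median. In Δ/Δ called genes of the blood lists all lie below 0 and those of the lysosomal, ligand, and decidua lists above it, whereas in enhΔ/Δ *Tal1*, *Gfi1b*, and *Ncf4* are the only called genes shown.

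The genes whose levels went most with those of the 2 members with a mean of at least 1 CPM were sought over all 31 libraries, among 12693 genes. *Csf1r* went most with *Zscan26* (Pearson r = 0.743 of log2(CPM + 1)), *Cln6* (0.719), and *Bst1* (0.697), and *Cd68* with *Pof1b* (0.721), *Prkx* (0.675), and *Pemt* (0.633). None of these 6 genes was a member or in the myeloid lists. The points share genotype, depth, and library preparation, so these values are descriptions only.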

How the data were processed

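Yolk sac RNA of 31 embryos was sequenced by the authors (Trio RNA-seq libraries, Illumina HiSeq), and reads were trimmed with fastq-mcf, aligned to mm9 with STAR 2.5.2a, and assigned to Ensembl genes with featureCounts, per the study's methods. The authors deposited log2(CPM + 1) values (unit log2) over library sizes adjusted by edgeR's normalization factors. Columns of the authors' own comparisons, a log2 fold change and mean log2 CPM, a likelihood ratio score, and its p-value and FDR, were deposited beside them and not used. Of the values, 100% were whole multiples of 1 read within 0.01 reads, and these reads were recovered for CPM sums and voom.

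Samples were grouped by labelled genotype. The main test was limma 3.58.1 (R 4.3.3; trend) on genotype plus labelled sex, with 24 residual degrees of freedom, no filter on low values, and Benjamini-Hochberg adjustment over 18477 genes at 0.05; the methods' batch term could not be fitted, since the labels give no batch. Alternatives were voom on the recovered reads, a pseudocount of 0.25, plain CPM, quantile normalization, a filter at a mean log2 of 1, no sex term, an *Ftl2-ps* term, the groups compared only, a replicate block, a threshold of 0.01, and each library left out. The limma and voom fits were tested on simulated data, with changes placed only in genes with a mean of at least 1 CPM. Of the members only *Csf1r* and *Cd68* reached that level, so the simulation does not cover the others. Exact permutation tests used 1 value per library. The 95% intervals of pooled levels and ratios are exact Poisson and binomial (scipy 1.17.1).

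The members and lists were chosen with earlier results of these data known. Genes named are the 7 members, at most 4 per list, taken by their adjusted p over genotypes, genes that check a label, and the 3 genes most correlated with a member.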

Additional observations from a re-analysis of the deposited data

Results flagged for a closer look

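Of 41 groups of 4 to 10 libraries with reads of a member, 13 had a highest library far from the others of its genotype by Dixon's 95% critical value. Chance flags about 1 in 20 groups of normally distributed values, and in weakly expressed genes a few reads decide. A group with reads in 1 library alone is flagged whatever its count, so the 13 flags cannot be set against that rate. *Etv2*+/+ replicate 4 stood out for *Itgam* (2.23 CPM from 33 reads, next 0.261) and *Mpo* (1.96 CPM, 29 reads, next 0.766), and *Etv2*+/+ replicate 5 for *Lyz2* (3.37 CPM, 27 reads, next 0.479). *Etv2*enhΔ/enhΔ replicate 1 stood out for *Spi1* (2.44 CPM, 31 reads, next 0.740) and *Lyz2* (1.18 CPM, 15 reads, next 0.388), and *Etv2*enhΔ/enhΔ replicate 2 for *Csf1r* (4.14 CPM, 63 reads, next 1.04). *Etv2*+/enhΔ replicate 4 was high for *Csf1r* (2.68 CPM, 34 reads, next 0.918). *Etv2*enhΔ/Δ replicate 3 was high for *Tyrobp* (1.10 CPM, 15 reads, next 0.258) and *Mpo* (0.952 CPM, 13 reads, next 0.292), and *Etv2*enhΔ/Δ replicate 4 for *Lyz2* (1.16 CPM, 9 reads, next 0.282). In *Etv2*Δ/Δ, where the other 4 libraries were at 0, replicate 4 had *Lyz2* (0.411 CPM, 4 reads) and *Tyrobp* (0.206 CPM, 2 reads), and replicate 2 had *Mpo* (0.0880 CPM, 2 reads).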

How the results depend on the processing

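The count of members called depended on the test. For association with genotype it was 0 in limma and 1 with log2(CPM + 0.25) or voom (*Spi1*). Against *Etv2*+/+, the count in *Etv2*Δ/Δ was 0 in limma, 1 without the sex term (*Tyrobp*, adjusted p = 0.0479), 2 with voom, and 0 with voom and the *Ftl2-ps* term. Against *Etv2*enhΔ/Δ it was 0 in limma, 1 with quantile normalization (*Csf1r*, adjusted p = 0.0481), and 1 (*Spi1*) with voom, with voom and the *Ftl2-ps* term, or with these 2 groups only. Against *Etv2*+/Δ it was 1, but 0 with the filter at a mean log2 of 1, which *Spi1* did not pass. The cause of these differences was not tested, apart from that filter. The voom fits that left out a library or had the *Ftl2-ps* term were chosen after seeing the data. The count tests planned as further alternatives, edgeR and DESeq2, had been run on the recovered reads before they were set aside, because the deposited unit is log2 and not counts, so their values are not given here. Both made calls beyond those of limma: *Spi1* in *Etv2*Δ/Δ against *Etv2*+/+ and *Etv2*enhΔ/Δ (and, as in limma, against *Etv2*+/Δ), *Mpo* against *Etv2*+/+, and, in DESeq2 alone, *Lyz2* against *Etv2*+/+ and *Csf1r* against *Etv2*enhΔ/Δ. In edgeR the *Spi1* calls held with each library of these 4 genotypes left out, and with the *Ftl2-ps* term, whereas the *Mpo* call did not.

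With each library left out, the limma counts for *Etv2*Δ/Δ were 0 to 1 against *Etv2*+/+, 0 to 1 against *Etv2*enhΔ/Δ, and 1 to 2 against *Etv2*+/Δ, and 0 to 1 for genotype. The voom counts were 0 to 3, 0 to 2, 1 to 2, and 0 to 2, respectively. In limma against *Etv2*+/+, *Tyrobp* was called without *Etv2*+/+ replicate 6 (adjusted p = 0.0221) or *Etv2*enhΔ/Δ replicate 3 (0.0227), and *Csf1r* without *Etv2*Δ/Δ replicate 5 (0.0192). The *Cd68* difference against *Etv2*+/+, not called, was 0.16 in voom without *Etv2*Δ/Δ replicate 5. The comparisons of *Etv2*enhΔ/Δ, *Etv2*enhΔ/enhΔ, *Etv2*+/Δ, and *Etv2*+/enhΔ with *Etv2*+/+ gave 0 calls under every alternative run. Replicate numbers did not pair the samples (35 correlations of deviations, −0.139 to 0.0965), and with a replicate block the counts were 1 against *Etv2*+/Δ and 0 in the other comparisons, as without it. Depth limits the weakest members: 1 read was up to 0.378 CPM, and *Itgam* rested on 74 reads in 26 libraries.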
